A study of Mus musculus with 14 samples.

Results

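The 10 genes of retinoic acid metabolism and response were taken from a list fixed by name and followed through every library: Rdh10, Dhrs3, Aldh1a2, Cyp26a1, Rbp4, Crabp1, Crabp2, Rarb, Rarg and Stra8. They are 10 of the 24054 genes in the deposited tables. All 10 were found by their symbol. RNA was sequenced from 14 libraries of mouse embryonic stem cells (ESCs) or cells derived from them. In d0con (n = 2) and d3con (n = 3) the genotype was Foxa2-Venus-KO/+, with the coding region of 1 allele of the endoderm transcription factor Foxa2 replaced by the fluorescent reporter Venus, and in d0ko (n = 2) and d3ko (n = 3) it was Foxa2-Venus-KO/Foxa2-Venus-KO. The control cells thus carried a single intact copy of Foxa2. At day 0 the cells had spent a day on red-fluorescent, mitomycin-treated embryonic fibroblasts in medium without LIF and were sorted as Cherry-negative. At day 3 they had been kept on Wnt3a-secreting feeders in differentiation medium with Activin A at 12 ng/ml, and were sorted as Venus-positive, so the d3ko cells are those in which the Foxa2 promoter was active without Foxa2 being made. The groups d2-FVFn and d2-FVFp (n = 2 each) came from another ESC line, TetON-Foxa2-Venus, grown without feeders in LIF and serum with 40 ng/ml doxycycline for 48 h and separated by sorting into a Venus-negative (n) and a Venus-positive (p) fraction. No label named retinoic acid among the additions to any culture.

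Retinoic acid is made from vitamin A by oxidation of retinol to retinaldehyde (Rdh10 among other enzymes, with Dhrs3 running the reaction backwards) and of retinaldehyde to retinoic acid (Aldh1a2 and its relatives), and it is broken down by enzymes of the Cyp26 family. Rbp4 carries retinol outside cells, while Crabp1 and Crabp2 hold retinoic acid within them. The acid binds nuclear receptors of the Rar family, which sit on DNA with Rxr partners at repeated short words, and Cyp26a1, Rarb, Dhrs3 and Stra8 are textbook genes that retinoic acid turns on in other settings. In the gastrulating embryo Aldh1a2 is made mainly in mesoderm.

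Rarb and Cyp26a1 carried the arrangement that retinoic acid receptors are known to bind, and their sequences are shown because they had the largest rises of the 10 genes in d3con. The search looked, on both strands of the RefSeq promoters of GRCm38.p6 (250 bases before to 50 after the start site), for 2 words in the same direction with 5 bases between them. The usual word AGGTCA was allowed, as were its common variants, which are AGTTCA in one form, with GGGTCA as a further form and finally GGTTCA. Promoters were found for 8 of the 10 genes, all but Crabp2 and Rdh10. The arrangement was held by 32 of 32851 promoters (0.0974%), among them those of Rarb and Cyp26a1. Capitals mark the words, which read in reverse complement in Cyp26a1.
Rarb, chr14:16575507-16575536, minus strand: cgggaagGGTTCAccgaaAGTTCActcgca
Cyp26a1, chr19:37697769-37697798, plus strand: ttaaagaTGAACTttgggTGAACTaatttg
The pair of words lay 53 to 37 bases before the start site of Rarb and 32 to 16 bases before that of Cyp26a1. The start site used for Rarb lies within the annotated gene (16430839 to 17082331). For Rarb, 4 of 7 annotated transcripts span the pair of words and 2 have untranslated sequence there. A single such word occurs in 43.7% of promoters, and those of Stra8, Rarg and Rbp4 held 2, 1 and 1 of them.

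Foxa2 itself recognises words of the form TGTTTAC, which 3.65% of promoters hold. Dhrs3 and Rbp4 were the members with it, and both are shown because both were higher in d2-FVFp than in d2-FVFn. Between d3ko and d3con the libraries of both genes overlapped. The promoter of Cyp26a1, which was also higher in d2-FVFp, did not hold the word. Rdh10, likewise higher there, had no promoter to search.
Dhrs3, chr4:144893108-144893137, plus strand: tgcctaaactcttctgtcggtctGTAAACA
Rbp4, chr19:38125542-38125571, minus strand: aaatgcatgGTAAACActtggcaattatgt
The word, again in reverse complement, ended at one of the 3 start sites listed for Dhrs3, which lies within the annotated gene (144892534 to 144928209), and lay 241 to 235 bases before that of Rbp4. For Dhrs3, 5 of 7 annotated transcripts span the word and 2 have untranslated sequence there. A match describes the letters and is not a measured binding site.

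Levels are given as TPM, the authors' estimate of the share of all transcripts that came from a gene, which allows for gene length and library total. Fold changes come from the expected counts, the estimated reads per gene, and were tested with edgeR's quasi-likelihood test over all genes tested. A gene was called changed where its log2 fold change was beyond 1 in size and its Benjamini-Hochberg adjusted p was under 0.05, and SE is the standard error of that log2 fold change. Library totals ran from 14142788 to 27278237 expected counts. Foxa2 stood at 34.8 to 58.6 TPM in d3con, 0.11 to 0.19 in d3ko and 160 to 169 in d2-FVFp, which fits the labels. In d2-FVFn it had 2.99 and 2.01 TPM, above the 0.07 to 0.14 TPM at day 0. The Venus-negative fraction was thus low in Foxa2 RNA but not free of it. Each genotype was represented by only 2 clones, and replicates 1 and 3 of a genotype share a clone. The d3ko library of the other clone, replicate 2, stood apart: 6 pluripotency markers summed to 2668 TPM in it against 15431 and 17364 in replicates 1 and 3, where d0ko had 15263 and 15663 and d3con 562 to 985. The calls on d3ko are therefore also given without it. Most of the marker sum was Dppa5a, with 12796 to 13310 TPM in d0ko and 1867 to 15543 in d3ko. Pou5f1 was lower in every d3ko library (501 to 944 TPM) than in both d0ko libraries (1335 to 1457), as was Zfp42. Nanog, Sox2 and Klf4 overlapped between these groups. The 10 markers of feeder fibroblasts, such as Col1a1, summed to 13.8 and 16.2 TPM in d0con, 41.5 and 151 in d0ko, 63.3 to 323 in d3con, 144 to 380 in d3ko and under 8 in the doxycycline groups (3.04 to 7.91). In the d3con and d3ko libraries 6 to 10 of the 10 reached 1 TPM and none was at 0. In bulk RNA a lower share of cells of a type and less RNA per cell cannot be told apart.

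Differentiation of the control cells was the comparison with the most genes called. Of the 9 members tested in d3con against d0con, 4 were higher (Cyp26a1, Rarb, Rbp4 and Dhrs3) and 2 were lower (Rarg and Aldh1a2), that is 6 of 9 where 35.2% of the 13899 genes tested were called (20.6% higher and 14.6% lower). Without Foxa2, 3 members rose (Cyp26a1, Rbp4 and Crabp2) and Rarg fell in d3ko against d0ko, where 17.3% of genes were called (11.6% higher and 5.72% lower). Between the genotypes at day 3, Aldh1a2 was higher and Rarb lower in d3ko, 2 of 9 where 8.26% of genes were called (4.75% higher and 3.51% lower). Without d3ko replicate 2 these counts were 1 higher and 1 lower in d3ko against d0ko and 1 higher and 2 lower in d3ko against d3con. In the doxycycline libraries, 4 of the 9 members tested (Cyp26a1, Rbp4, Rdh10 and Dhrs3) were higher in d2-FVFp than in d2-FVFn and none was lower. Of the 12943 genes tested there, 6.96% were called higher and 1.47% lower. Both fractions had received doxycycline, so these are differences between sorted fractions of the same cultures. These comparisons share groups, so that d3con and d3ko each enter 2 of them. Stra8 did not pass the filter on low counts at day 0 and day 3, nor Rarb in the doxycycline libraries.

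**Figure D1:**
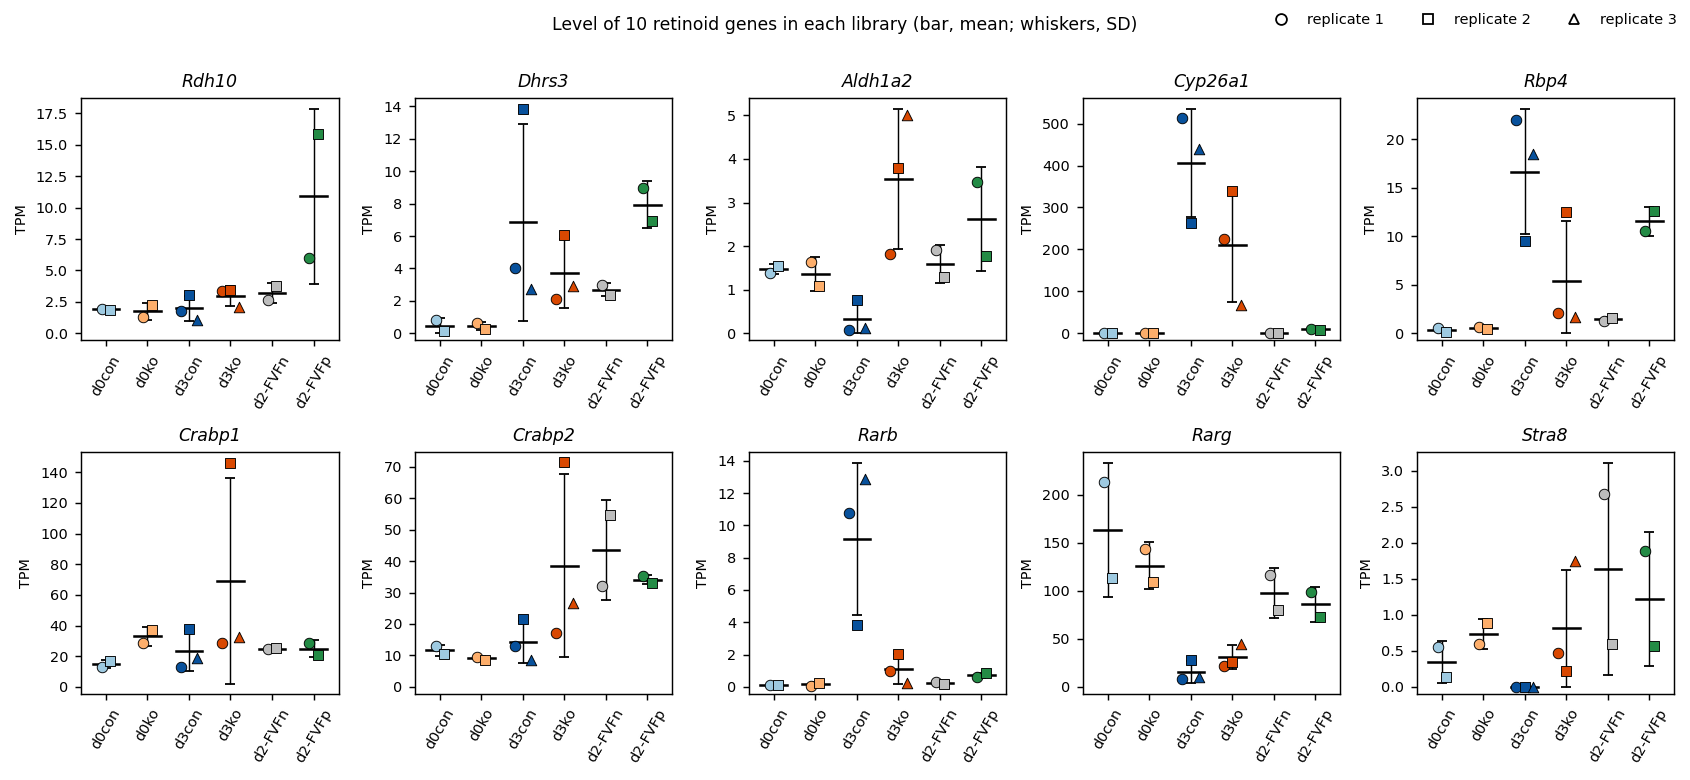
TPM of each of the 10 genes in each of the 14 libraries, with the mean (bar) and SD (whiskers) of the 6 groups and a marker shape for the replicate number. Cyp26a1 reaches 264 to 514 TPM in d3con from 0.94 to 1.16 in d0con, and Rarb is above 3 TPM only in the d3con libraries.

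The breakdown enzyme Cyp26a1 showed the widest range. In the day 0 libraries it had 0.94 and 1.16 TPM (d0con) and 1.24 and 1.16 TPM (d0ko), from 19 to 31 reads each. It had 514, 264 and 439.7 TPM in d3con replicates 1, 2 and 3, and 225, 339 and 66.7 TPM in d3ko. Every day 3 library was thus more than an order of magnitude above every day 0 library (45.5% of genes tested were higher without overlap in d3con, and 36.6% in d3ko), while the 2 genotypes overlapped at day 3. The log2 fold change was 8.40 (SE 0.84, edgeR's adjusted p = 0.00023) in d3con against d0con and 7.27 (SE 0.79, edgeR's adjusted p = 0.000839) in d3ko against d0ko, where it was 6.76 (adjusted p = 0.000756) without d3ko replicate 2. Between the genotypes at day 3 it was -0.97 (SE 0.48, edgeR's adjusted p = 0.226), and did not pass. Without d3ko replicate 2 that value was -1.48 (edgeR's adjusted p = 0.0526), and without replicate 2 in both groups it was -1.72 (edgeR's adjusted p = 0.0288). In the doxycycline series it had 0.59 and 0.82 TPM in d2-FVFn and 9.46 and 8.43 TPM in d2-FVFp, a log2 fold change of 3.59 (SE 0.36, edgeR's adjusted p = 0.00211).

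In order of their means, d3con (406 ± 129 TPM) and d3ko (210 ± 137, SD of 3 libraries each) overlapped. Below them came d2-FVFp (8.95 ± 0.728), then d0ko (1.20 ± 0.0566) and d0con (1.05 ± 0.156), which overlapped, and d2-FVFn (0.705 ± 0.163, SD of 2 libraries each). Cyp26a1 made up nearly all of its family: 99.9% ± 0.0267 of the summed TPM of Cyp26a1, Cyp26b1 and Cyp26c1 in d3con and 99.7% ± 0.0131 in d3ko (SD of 3 libraries each). Its relatives Cyp26b1 and Cyp26c1 were at 0 to 0.23 and 0 to 1.01 TPM over all libraries.

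Aldh1a2, the enzyme of the last step of synthesis, was ordered in opposite ways over the days in the 2 genotypes, at low levels. It had 1.39 and 1.55 TPM in d0con and 0.08, 0.76 and 0.11 TPM in d3con, so that all d3con libraries lay below both d0con libraries. In d0ko it had 1.63 and 1.08 TPM and in d3ko 1.81, 3.79 and 5.0 TPM, with all d3ko libraries above both d0ko libraries and above all d3con libraries. Such an opposite order by library was found in 43 of the 13899 genes tested (0.309%), and the reverse of it in 0.748%. All d3ko libraries were above all d3con libraries in 11.5% of genes. The d3con values rest on 2, 18 and 3 reads and those of d3ko on 37, 83 and 168.

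The log2 fold change of Aldh1a2 was -2.47 (SE 0.83, edgeR's adjusted p = 0.0329) in d3con against d0con and 1.21 (SE 0.81, edgeR's adjusted p = 0.280) in d3ko against d0ko, which did not pass with or without d3ko replicate 2 (1.17 and adjusted p = 0.324 without it). In d3ko against d3con it was 3.52 (SE 0.79, edgeR's adjusted p = 0.0257), and without d3ko replicate 2 it was 3.48 (edgeR's adjusted p = 0.0172). The call between the genotypes was lost without d3con replicate 1 (3.05, edgeR's adjusted p = 0.0868), d3con replicate 3 (3.08, adjusted p = 0.0998) or d3ko replicate 3 (3.17, adjusted p = 0.0741), in a fit of only the day 3 groups (3.52, adjusted p = 0.0925) and without replicate 1 of both groups (3.36, adjusted p = 0.150). That in d3con against d0con was lost without d0con replicate 1 or 2 or d3con replicate 1 or 3 (edgeR's adjusted p = 0.0847 to 0.110) and in a fit of only those groups (adjusted p = 0.0538). The difference between the 2 day changes was 3.67 (SE 1.17, edgeR's adjusted p = 0.240). No gene passed that test with edgeR (0% of 13899), although 13.2% of all genes and 2 of the 9 members, Aldh1a2 and Rarb, had an unadjusted p under 0.05, and DESeq2 called Aldh1a2 (3.71, adjusted p = 0.0488). Without d3con replicate 2, the d3con library with most Aldh1a2, it was 5.34 (edgeR's adjusted p = 0.0296).

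The 6 mesoderm markers, such as Mesp1, summed to 7.73 to 36.4 TPM in d3con and 15.3 to 111 TPM in d3ko. The library with most of them, d3ko replicate 2, had 3.79 TPM of Aldh1a2, less than d3ko replicate 3, whose markers summed to 15.3 TPM. The summed feeder markers of the day 3 groups overlapped, as given above. The part of either cell type in the Aldh1a2 difference was not tested.

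The 3 Aldh1a genes made different shares of a small sum. Aldh1a1 was at 0 to 0.21 TPM throughout. Aldh1a2 made 91.7% ± 4.81 of the family's TPM in d3ko and 52.5% ± 11.3 in d3con (SD of 3 libraries each). In the doxycycline series it was Aldh1a3, another enzyme of the same step, that differed. It had 0.41 and 0.42 TPM in d2-FVFn and 4.54 and 10.8 TPM in d2-FVFp (log2 fold change 4.15, SE 0.50, edgeR's adjusted p = 0.00353). There Aldh1a2 had 1.90 and 1.28 TPM in d2-FVFn and 3.46 and 1.77 TPM in d2-FVFp, which overlapped (log2 fold change 0.67, SE 0.47, edgeR's adjusted p = 0.356).

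Rdh10 and Dhrs3 work on retinol and retinaldehyde in opposite directions. Rdh10 stayed between 1.09 and 3.47 TPM in all day 0 and day 3 libraries and was called in none of those comparisons. In d2-FVFp it had 6.0 and 15.9 TPM against 2.64 and 3.78 in d2-FVFn, a log2 fold change of 1.72 (SE 0.46, edgeR's adjusted p = 0.0444). The 2 d2-FVFp libraries differed from each other by more than the lower of them differed from d2-FVFn, and the call was lost without either d2-FVFn library (edgeR's adjusted p = 0.191 and 0.106) or without d2-FVFp replicate 2 (0.87, adjusted p = 0.161).

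Dhrs3 was at 0.79 and 0.15 TPM in d0con and 0.64 and 0.26 in d0ko. It had 4.02, 13.8 and 2.72 TPM in d3con and 2.10, 6.07 and 2.89 TPM in d3ko. All day 3 libraries were above all day 0 libraries, an order that 45.5% of genes tested had in d3con and 36.6% in d3ko. Replicate 2 was the highest in both genotypes. The rise was called in d3con against d0con (log2 fold change 3.81, SE 1.01, edgeR's adjusted p = 0.0122), but not without d0con replicate 2 (3.08, adjusted p = 0.0871). In d3ko against d0ko it was 2.77 (SE 0.96, edgeR's adjusted p = 0.0547), and without d3ko replicate 2 it was 2.26 (adjusted p = 0.102). Of 13 alternatives, 3 called that rise in d3ko. In d2-FVFp Dhrs3 had 8.95 and 6.91 TPM against 2.98 and 2.39 TPM in d2-FVFn (log2 fold change 1.5, SE 0.33, edgeR's adjusted p = 0.0243). That call was lost without either d2-FVFn library or d2-FVFp replicate 1. Dhrs3 overlaps Vps13d, and the kit does not mark strand, so reads over the shared stretch cannot be assigned by strand.

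**Figure D2:**
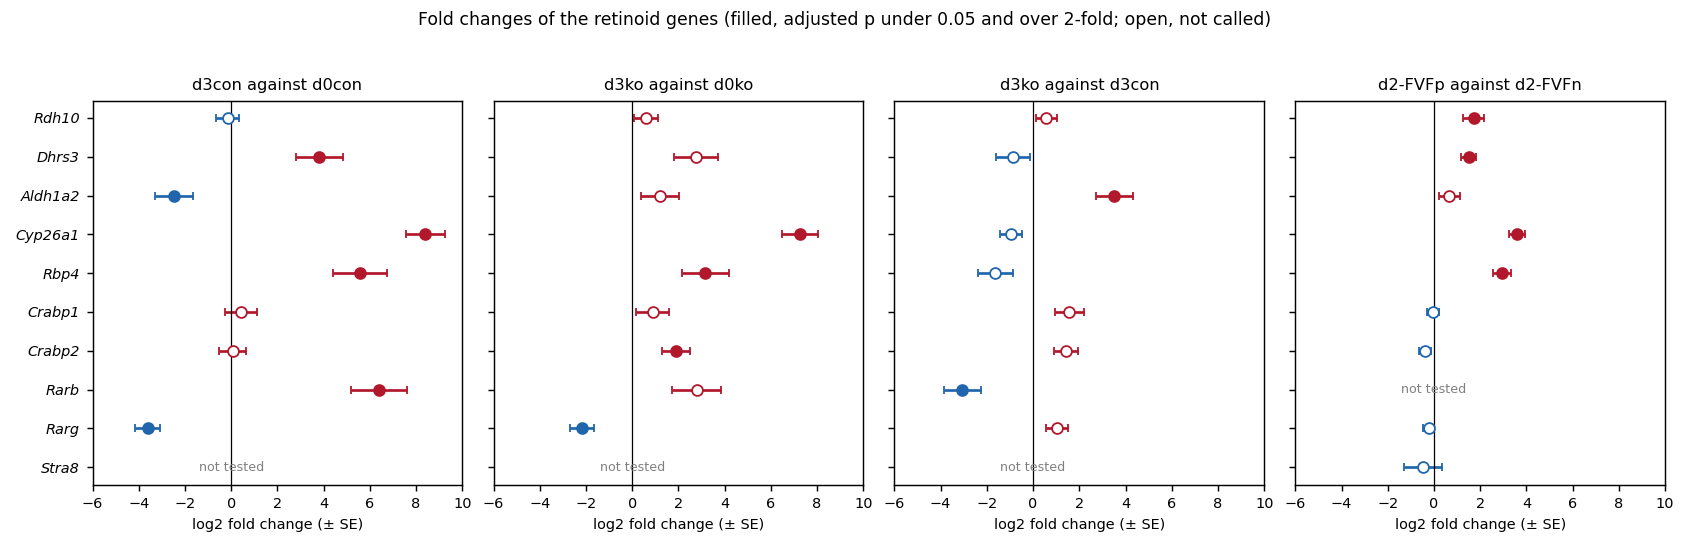
Log2 fold change (x axis) with its SE for each gene in d3con against d0con, d3ko against d0ko, d3ko against d3con and d2-FVFp against d2-FVFn, filled where called. Cyp26a1 is filled in 3 panels, at 8.40, 7.27 and 3.59, and open in d3ko against d3con at -0.97.

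Among the carriers, Rbp4, the secreted carrier of retinol, was called higher at day 3 in both genotypes and in d2-FVFp against d2-FVFn. It had 0.49 and 0.12 TPM in d0con and 22.0, 9.52 and 18.5 TPM in d3con (log2 fold change 5.56, SE 1.17, edgeR's adjusted p = 0.00414). In d0ko it had 0.63 and 0.44 TPM and in d3ko 2.13, 12.5 and 1.65 TPM (log2 fold change 3.17, SE 1.02, edgeR's adjusted p = 0.0436). Replicate 2 of d3ko was the high one and overlapped d3con, and the other d3ko libraries lay below all of d3con.

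Without d3ko replicate 2 the rise of Rbp4 in d3ko was 1.69 (edgeR's adjusted p = 0.0822), and the difference between the genotypes went from -1.63 (SE 0.76, edgeR's adjusted p = 0.199) to -3.11 (adjusted p = 0.00575). The rise in d3ko was also lost without either d0ko library (adjusted p = 0.179 and 0.204). Induced Foxa2 went with 10.5 and 12.6 TPM against 1.29 and 1.61 TPM (log2 fold change 2.95, SE 0.40, edgeR's adjusted p = 0.00501). Rbp4 and Cyp26a1 kept their doxycycline calls without either d2-FVFn library, and without either d2-FVFp library they did not pass the filter on low counts and were not tested. The 10 markers of visceral and parietal endoderm, the tissue of the yolk sac in which Rbp4 is also made, summed to 197 to 296 TPM at day 0, 285 to 593 in d3con, 184 to 353 in d3ko and 191 to 268 in the doxycycline groups. Most of these sums came from Sparc (mean 180 TPM in d0con and 332 in d3con) and Lamb1 (18.6 and 134). Of the 10 markers, 3 to 5 reached 1 TPM in any library. Afp was at 0 TPM in all day 0 and day 3 libraries, and Ttr, the plasma partner of Rbp4, was at 0 to 0.48 TPM throughout. The part of these markers' cells in the Rbp4 levels was not tested.

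The intracellular carriers Crabp1 and Crabp2 were present in every library. Crabp1 had 12.98 and 16.8 TPM in d0con, 28.4 and 37.3 TPM in d0ko, 13.04, 37.9 and 18.9 TPM in d3con and 28.4, 146 and 32.2 TPM in d3ko. Both d0ko libraries were above both d0con libraries, an order seen in 28.9% of genes, and the difference did not pass (log2 fold change 1.10, SE 0.77, edgeR's adjusted p = 1). No gene was called by edgeR between the day 0 groups (0% of 13899), where 1.4% had an unadjusted p under 0.05, none of the 9 members among them. The feeder fibroblast markers were higher in d0ko as well, with 7 of 10 at an unadjusted p under 0.05 and none called, and their part in the Crabp1 levels was not tested. DESeq2 on those 4 libraries alone called Crabp1 among 32 genes, at 1.10 with an adjusted p of 0.0278.

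Crabp2 had 12.9 and 10.5 TPM in d0con, 9.52 and 8.64 in d0ko, 12.9, 21.5 and 8.41 in d3con and 17.1, 71.7 and 26.8 in d3ko. Its rise in d3ko against d0ko was called (log2 fold change 1.90, SE 0.62, edgeR's adjusted p = 0.0454), but without d3ko replicate 2 it was 1.11 (adjusted p = 0.0913), and without either d0ko library the adjusted p was 0.187 and 0.2. Between the genotypes at day 3 neither carrier passed, with log2 fold changes of 1.56 for Crabp1 (SE 0.63, edgeR's adjusted p = 0.142) and 1.42 for Crabp2 (SE 0.52, edgeR's adjusted p = 0.115), which were 0.40 and 0.63 without d3ko replicate 2. Replicate 2, the library with least pluripotency marker RNA, was the highest d3ko library for both. In the doxycycline series both carriers overlapped between the groups, at 20.9 to 28.8 TPM for Crabp1 and 32.2 to 54.6 TPM for Crabp2 over the 4 libraries.

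Of the 2 member receptors, Rarb was the one higher in d3con than in any other library. It had 0.09 and 0.11 TPM in d0con, 0.03 and 0.26 TPM in d0ko, 10.7, 3.85 and 12.9 TPM in d3con and 1.01, 2.06 and 0.26 TPM in d3ko. The d3con libraries lay at 3.85 TPM and above and the others at 2.06 TPM and below, while d3ko replicate 3 was no higher than d0ko replicate 2. All d3con libraries were above all d0con libraries in 45.5% of genes tested, and all d3ko libraries below all d3con libraries in 12.3%. Rarb overlaps 4 pseudogenes in the annotation.

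The log2 fold change of Rarb in d3con against d0con was 6.40 (SE 1.22, edgeR's adjusted p = 0.00262). In d3ko against d0ko it was 2.80 (SE 1.06, edgeR's adjusted p = 0.0726), without d3ko replicate 2 it was 1.999 (adjusted p = 0.164), and with the clone as a block, which pairs the day 0 and day 3 libraries of a clone, it was 3.31 and passed (adjusted p = 0.0201). Of 13 alternatives, 3 called the rise in d3ko, the clone block among them. Between the genotypes at day 3 the log2 fold change was -3.06 (SE 0.81, edgeR's adjusted p = 0.0437), and without d3ko replicate 2 it was -3.87 (adjusted p = 0.0131). That call was lost without d3con replicate 1 or 3 or d3ko replicate 1 or 3, with values from -3.03 to -2.57 and adjusted p = 0.0918 to 0.141. It was also lost with the replicate number as a block (-3.38, adjusted p = 0.0705), in a fit of only the day 3 groups (-3.05, adjusted p = 0.0924) and without replicate 1 of both groups, the libraries of longer reads (-2.86, adjusted p = 0.267). The 2 day changes differed by -3.60 (SE 1.56, edgeR's adjusted p = 0.364), and did not pass.

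The summed feeder fibroblast markers of d3ko and d3con overlapped, and the d3ko library with most of them (replicate 3, 380 TPM) had the lowest Rarb of that group. Their part in the Rarb levels was not tested. In the doxycycline series Rarb was not tested. It had 0.30 and 0.19 TPM in d2-FVFn and 0.62 and 0.83 TPM in d2-FVFp, from 6 to 22 reads, and both d2-FVFp libraries were higher, as in 35.1% of genes tested there. No member was lower in both d2-FVFp libraries than in both d2-FVFn libraries, an order that 27.4% of genes had.

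Rarg fell at day 3 in both genotypes. It had 213 and 114 TPM in d0con and 8.19, 28.3 and 9.73 TPM in d3con, a log2 fold change of -3.61 (SE 0.54, edgeR's adjusted p = 0.000902). It had 144 and 109 TPM in d0ko and 22.2, 26.2 and 44.95 TPM in d3ko, a log2 fold change of -2.18 (SE 0.52, edgeR's adjusted p = 0.0141). All day 3 libraries were below all day 0 libraries, an order that 29.2% of genes tested had in d3con and 21.4% in d3ko. Replicates 1 and 3 of d3ko had 22.2 and 44.95 TPM of Rarg. In these the pluripotency marker sum, mostly Dppa5a, was near that of day 0, although Pou5f1 and Zfp42 were lower. The part of these markers' cells in the Rarg levels was not tested. In d3ko against d0ko the call was lost without either d0ko library (adjusted p = 0.0970 and 0.0513) and kept without d3ko replicate 2 (-2.06, adjusted p = 0.0311).

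Between the genotypes at day 3 Rarg differed by 1.02 (SE 0.47, edgeR's adjusted p = 0.198). Without d3con replicate 2, the highest of d3con, that value was 1.78 (adjusted p = 0.0229). In the doxycycline groups it had 116 and 79.6 TPM (d2-FVFn) and 98.9 and 72.7 TPM (d2-FVFp), and the replicates of a group differed by more than the groups (log2 fold change -0.24, SE 0.22, edgeR's adjusted p = 0.485).

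**Figure D3:**
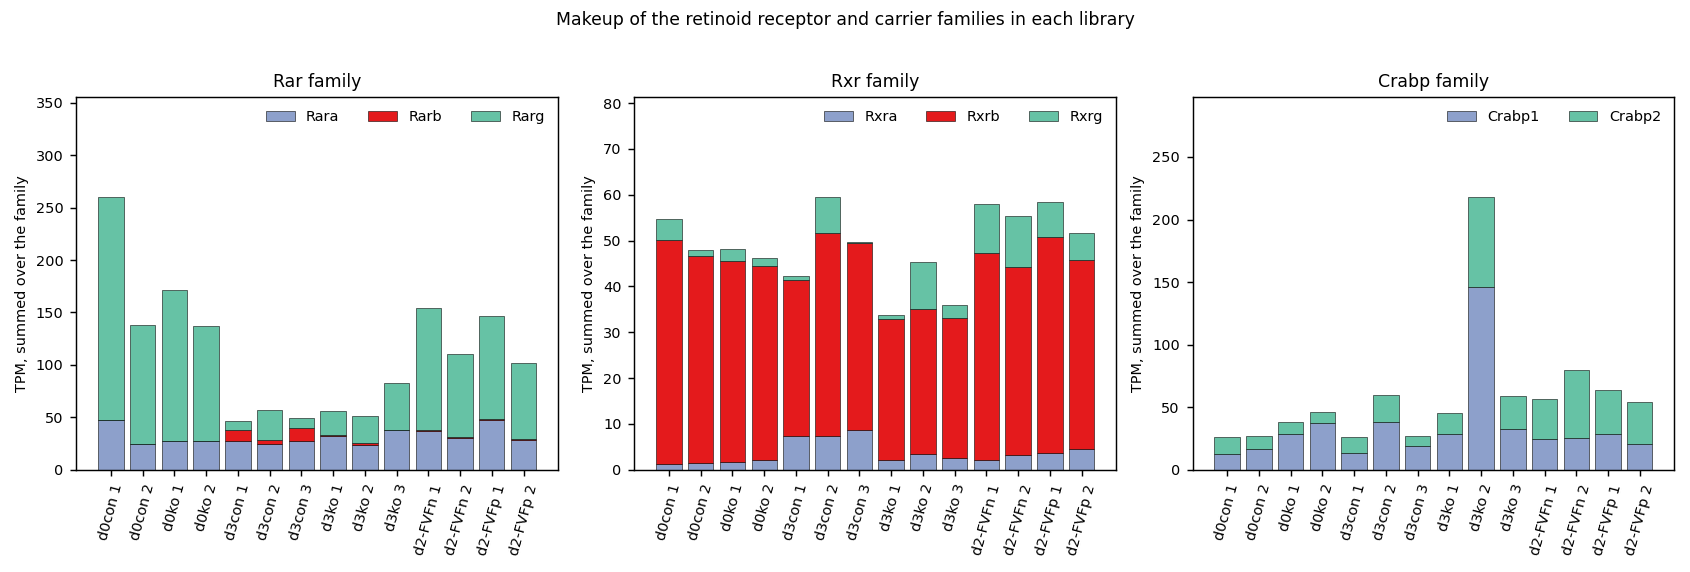
TPM of the members of the Rar, Rxr and Crabp families stacked by library, with the sum as the bar height. The Rar sum is 137 to 260 in the day 0 libraries and 46.1 to 83.1 at day 3, and Rarb is a visible part of it only in d3con.

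Rarg made 82.1% ± 0.409 of the Rar sum in d0con and 29.0% ± 17.9 in d3con, while Rarb went from 0.0572% ± 0.0320 to 18.7% ± 10.4 (SD, n = 2 and 3). In d3ko Rarb made 2.04% ± 1.85 and Rarg 48.2% ± 7.49 (SD, n = 3). The remaining member, Rara, stayed between 23.4 and 47.4 TPM in every library and was not called in any comparison. Their partners were mainly Rxrb, with 76.0% to 91.9% of the Rxr sum as group means. Rxra had 1.33 and 1.42 TPM in d0con and 7.44, 7.43 and 8.78 TPM in d3con (log2 fold change 2.33, SE 0.27, edgeR's adjusted p = 0.000341). In d3ko it had 2.09, 3.38 and 2.57 TPM, below all d3con libraries, an order that 12.3% of genes tested had. The log2 fold change was -1.57 (SE 0.22, edgeR's adjusted p = 0.00973), and -1.76 without d3ko replicate 2 (edgeR's adjusted p = 0.000823).

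Stra8, a gene that germ cells need to enter meiosis, was low everywhere. It was at 0 reads in all 3 d3con libraries, where 3 reads, the limit that a count of 0 allows, are 0.126 to 0.153 CPM (reads scaled to the library total). It had 6, 3 and 37 reads (0.47, 0.22 and 1.74 TPM) in d3ko, 9 and 2 reads in d0con and 12 and 16 reads in d0ko. Such an order, with d3ko above d3con in every library, was seen in 11.5% of the genes tested. The 8 germ cell and meiosis markers, such as Dazl, moved in the same libraries: they summed to 35.2 to 51.6 TPM in d3con, 266, 43.5 and 291 TPM in d3ko and 240 to 504 TPM at day 0. In all, 6 of the 8 were called higher and Prdm1 lower in d3ko against d3con, where 4.75% and 3.51% of all genes were. Several of them are also made in ESCs, and their part in the Stra8 counts was not tested. In the doxycycline series Stra8 had 2.68 and 0.60 TPM (d2-FVFn) and 1.88 and 0.56 TPM (d2-FVFp), a log2 fold change of -0.47 (SE 0.83, edgeR's adjusted p = 0.725), and replicate 1 was the higher of both groups.

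Other genes of the pathway were taken from 3 wider lists. Of 26 further genes of retinoid synthesis, storage, transport and breakdown, 15 were tested at day 0 and day 3. In d3con against d0con, 5 were called higher and 5 lower, where 20.6% and 14.6% of all genes were. The median log2 fold change was -0.32 against 0.07 over all genes. In d3ko against d0ko, 4 were higher and 3 lower (median -0.11 against 0.07), where 11.6% and 5.72% of all genes were. Between the genotypes at day 3 none of the 15 was called by edgeR (median 0.28 against 0.02), where 8.26% of all genes were. In that comparison 4 had an unadjusted p under 0.05, where 27.9% of all genes did, and DESeq2 called 1 lower. Without d3ko replicate 2 the counts were 3 higher and 3 lower in d3ko against d0ko and 1 higher and 1 lower between the genotypes. The enzymes Rdh11, which reduces retinaldehyde, and Dhrs4 were the most abundant of those called. Rdh11 had 20.7 and 19.1 TPM in d0con and 114, 157 and 143 TPM in d3con (log2 fold change 2.58, SE 0.30, edgeR's adjusted p = 0.000372), and it rose in d3ko as well (1.94, SE 0.29, edgeR's adjusted p = 0.00261, and 1.56 without d3ko replicate 2). Dhrs4 fell, with log2 fold changes of -1.76 in d3con (SE 0.15, edgeR's adjusted p = 0.00015) and -1.45 in d3ko (SE 0.15, edgeR's adjusted p = 0.000741, and -1.53 without d3ko replicate 2). Cyp2s1 fell in d3con (-1.80, SE 0.52, edgeR's adjusted p = 0.0171), Rdh14 rose in both genotypes (1.34 and 1.19) and Adh7 fell in both (-2.73 and -3.66). The day 3 values of Adh7 rest on 14, 1 and 2 reads in d3con and 3, 5 and 2 in d3ko. Without d3ko replicate 2 the d3ko value of Adh7 was -4.15 and still called, and that of Rdh14 was 0.9995, just inside the limit of 1 in size, and its call was lost. In the doxycycline series 3 of 12 tested were higher, Aldh1a3, Cyp2s1 (3.55 and 2.13 TPM to 13.3 and 12.6) and Adh7, and none was lower. Of all genes tested there 6.96% were called higher and 1.47% lower.

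Of the 12 receptors and cofactors listed, all were tested. Only Rxra (higher) and the coactivator Ncoa3 (lower, -1.99, SE 0.33, edgeR's adjusted p = 0.00134) were called in d3con against d0con. Of all genes 20.6% were called higher and 14.6% lower there. Ncoa3 was also the one called in d3ko against d0ko (-1.37, SE 0.32, edgeR's adjusted p = 0.0141), where 5.72% of all genes were called lower. Rxra was the one in d3ko against d3con, where 3.51% were called lower. None was called with doxycycline by edgeR (3 had an unadjusted p under 0.05, where 33.4% of all genes did) or by DESeq2. Without d3ko replicate 2, Ncoa3 in d3ko was -1.11 against d0ko (edgeR's adjusted p = 0.0152) and was called higher against d3con (1.13, adjusted p = 0.00945), beside Rxra.

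The third list held 20 genes known to rise with retinoic acid in other settings, of which 15 were tested at day 0 and day 3. In d3con against d0con 6 were higher and 3 lower (median log2 fold change 2.57 against 0.07 over all genes), where 20.6% and 14.6% of all genes were. In d3ko against d0ko 5 were higher and 1 lower (2.02 against 0.07), where 11.6% and 5.72% of all genes were. Among those called between the genotypes at day 3, Zfp703 had 14.6 to 19.4 TPM in d3con and 2.32 to 4.84 in d3ko (log2 fold change -2.33, SE 0.49, edgeR's adjusted p = 0.0216, and -2.22 without d3ko replicate 2).

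Cdx1, a direct retinoic acid target in the embryo, went the other way. It had 0.20, 1.15 and 0.18 TPM in d3con and 15.4, 3.68 and 48.6 TPM in d3ko (log2 fold change 5.49, SE 1.06, edgeR's adjusted p = 0.0168, and 6.005 without d3ko replicate 2). In d3ko against d3con the list had 3 genes higher and 3 lower (median 0.66 against 0.02 over all genes), where 4.75% and 3.51% of all genes were. The list's counts of called genes were the same when d3ko replicate 2 was left out, over 14 genes tested in place of 15, as Hoxb2 no longer passed the filter. In the doxycycline series 4 of 7 tested were higher and 1 lower, where 6.96% and 1.47% of all genes were. Tgm2, a transglutaminase, had 1.5 and 2.29 TPM in d2-FVFn and 12.3 and 18.6 TPM in d2-FVFp (log2 fold change 2.97, SE 0.30, edgeR's adjusted p = 0.00213). Zfp703 was higher by 4.08, from a base near 0: it had 1 and 4 reads (0.04 and 0.12 TPM) in d2-FVFn and 24 and 55 reads (1.02 and 1.98 TPM) in d2-FVFp. Stra6 and Cyp26b1 stand in the first as well as the third list.

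**Figure D4:**
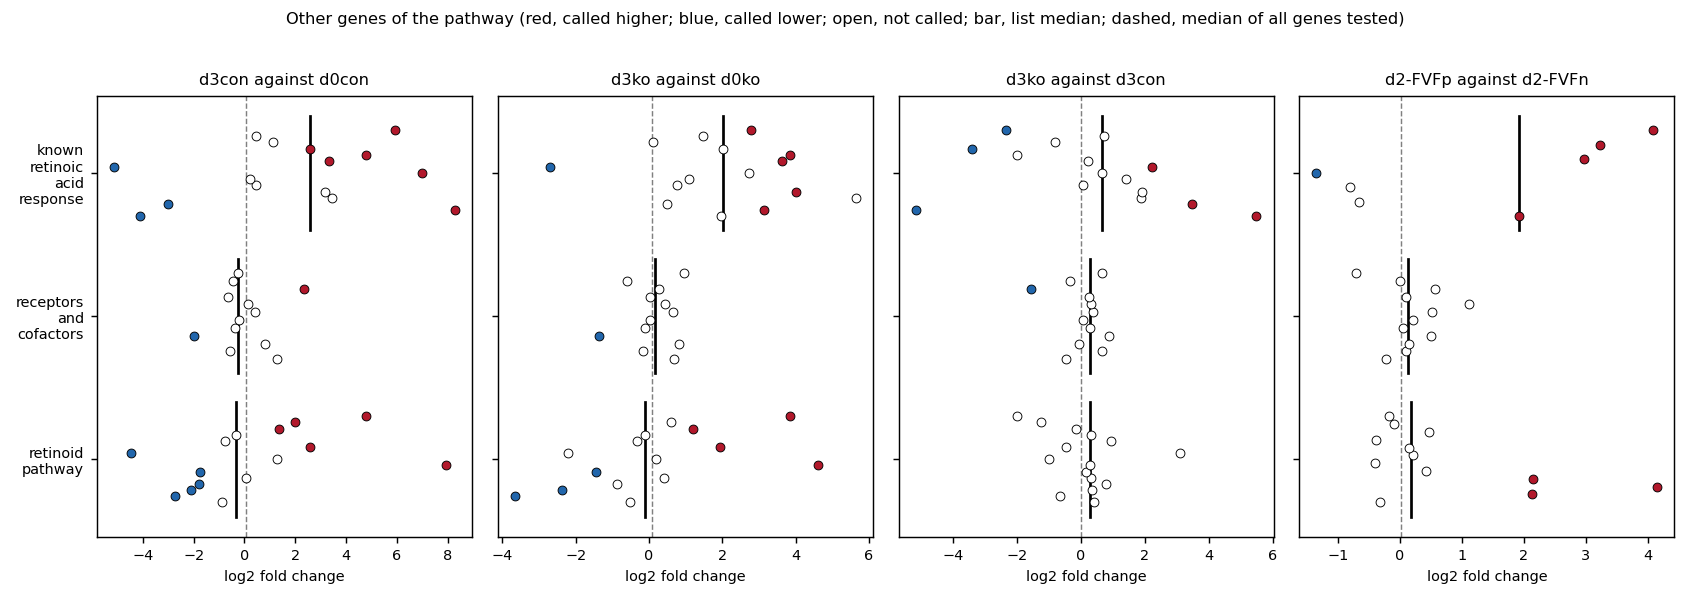
Log2 fold change (x axis) of each tested gene of the 3 wider lists in 4 comparisons, red where called higher, blue where called lower and open where not called, with the list median (bar) and the median of all genes (dashed line). In d3ko against d3con no gene of the retinoid pathway list is filled, and the known response list has 3 red and 3 blue points.

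The genes whose profile over the 14 libraries was most like that of a member were found by the smallest root mean square difference of centred log2(TPM + 1), among genes with a group mean of at least 5 TPM. For Cyp26a1 the nearest was Lhx1, a transcription factor of the anterior endoderm and mesoderm, at 0.603 on that scale, with 230 ± 26.6 TPM in d3con and 88.3 ± 98.1 in d3ko (SD of 3 libraries each), followed by Mogat2 and Gata4. For Rarb the nearest were Prokr1, Arhgap24 and Rgs8 (0.235 to 0.291), each at a mean of 5.78 to 12.2 TPM in d3con and 0.44 to 0.803 in d3ko. Rbp4 was nearest to Gprc5c, Chst15 and Dsc2, and Rarg to Zfp423 and Ina, among others. Dhrs3 was nearest to H2-D1, Map3k15 and H2-T23, Rdh10 to Chpf2, Amotl2 and Arhgef28, Crabp1 to Fgf3, Pstpip2 and Gstk1, and Crabp2 to Hmgn3, H2-M3 and Dlk1. Aldh1a2 and Stra8 never reached a group mean of 5 TPM and were not matched.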

How the data were processed

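RNA of sorted mouse cells was converted with a SMART-Seq low-input kit, which does not mark strand. The authors aligned reads to mm10 with STAR and quantified each library with RSEM. The versions are not given in the sources used here. The deposited tables hold expected counts (estimated reads per gene, unscaled), TPM and FPKM, both scaled by the authors for length and depth. FPKM was not used. Effective lengths imply 75-base reads for replicate 1 of d3con and d3ko and 50-base reads for the rest.

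Expected counts were rounded, filtered at 1 CPM in at least 2 libraries of the fit, scaled with TMM and tested with edgeR 4.0.16 in R 4.3.3 (quasi-likelihood F test, Benjamini-Hochberg adjustment over all genes tested). The 10 day 0 and day 3 libraries were fitted together (13899 genes) and the 4 doxycycline libraries apart (12943 genes). SE is the size of the log2 fold change divided by the square root of F. Precision is limited by 2 or 3 libraries per group, and p-values measure the spread between these libraries, which come from 2 clones per genotype. Library totals ran from 14142788 to 27278237 expected counts. The fit was tested on simulated counts. Alternatives were DESeq2 1.42.0, other scaling, filters and blocks, and leaving out libraries. For the wider lists DESeq2, and for them and their named genes the fit without d3ko replicate 2, were added after seeing the data.

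The day 0 and day 3 libraries with the same number come from the same clone of a genotype, per the study's sample list, so the clone block pairs them. Their deviations from the group means correlated at -0.0396 to 0.0627. Positions and promoters are those of RefSeq on GRCm38.p6, the assembly that mm10 names. From the wider lists up to 4 called genes of each list and comparison with the highest group mean TPM were to be named with values, and other names were chosen after their values were seen. Some genes that these rules would name are not reported here. The members and lists were chosen with earlier results of these data known.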

Additional observations from a re-analysis of the deposited data

Results flagged for a closer look

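Aldh1a2 was the one member whose libraries were ordered without overlap in opposite ways over the days in the 2 genotypes, lower in all 3 d3con libraries than in both d0con libraries and higher in all 3 d3ko libraries than in both d0ko libraries. The difference between the 2 changes was 3.67 in log2 units (SE 1.17, edgeR's adjusted p = 0.240, unadjusted p = 0.0115), so the test of the difference itself did not pass. The same opposite order held for 43 of 13899 genes (0.309%).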

How the results depend on the processing

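Of 673 values of single members under the alternatives, 604 kept their direction and side of the threshold, 35 lost a call, 16 gained one and 18 changed sign, none of the last among called values. The counts of called members in d3con against d0con (6) stayed between 4 and 7. In d3ko against d0ko (4) the count was 2 with only the groups compared and 1 to 5 with 1 library left out. In d3ko against d3con (2) it was 1 with the replicate block, 1 with a mean count of at least 50, 0 with only the groups compared, 0 without replicate 1 of both groups, 5 without replicate 2 of both groups, and 0 to 3 with 1 library left out. Between the day 0 groups (0) it was 1 with DESeq2 on those groups alone. For the difference of day changes (0) it was 1 with DESeq2 and 0 to 1 with 1 library left out. In d2-FVFp against d2-FVFn (4) it was 1 to 2 with 1 library left out, where Cyp26a1 and Rbp4 were not tested without either d2-FVFp library. Where an arm then held 1 library, it was assumed to vary like the others. The cause of these changes was not tested.

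With the replicate block, Rarb in d3ko against d3con was -3.38 (edgeR's adjusted p = 0.0705), Rbp4 in d3ko against d0ko 3.24 (adjusted p = 0.0679) and Rdh10 in d3con against d0con 0.043, against -0.15 without it. The block changed no other call among the members. The same-numbered d3con and d3ko libraries come from different clones, with correlations of 0.54, 0.29 and -0.01 between their deviations. Those numbered 1 also share a read length of 75 bases. The clone block changed only the call of Rarb in d3ko against d0ko. With 1 library left out, sign changes came to these ranges. In d3con against d0con they were -0.11 to 0.72 for Crabp1, -0.32 to 0.36 for Crabp2 and -0.58 to 0.16 for Rdh10. In d3ko against d0ko Crabp1 had -0.28 to 1.25, and in d3ko against d3con Dhrs3 had -1.37 to 0.14. In d0ko against d0con they were -0.79 to 0.11 for Rarg, -0.72 to 1.82 for Dhrs3, -0.61 to 0.17 for Rdh10, -0.50 to 0.12 for Aldh1a2 and -1.85 to 1.42 for Rarb. For the difference of day changes Crabp1 had -0.70 to 0.99. In d2-FVFp against d2-FVFn they were -0.46 to 0.085 for Rarg, -0.70 to 0.054 for Crabp2, -0.28 to 0.18 for Crabp1 and -1.18 to 0.19 for Stra8. Depth limits Stra8 (0 to 37 reads per library), Rarb at day 0 (1 to 10) and Aldh1a2 in d3con (2 to 18).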

Other observations

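The paired words that retinoic acid receptors bind stood in the promoters of 31 of 27025 genes (0.115%), of which 4 were tested in each fit. At day 3 in d3con Cyp26a1, Rarb and Syndig1 were called higher, where 20.6% of all genes tested were. In d3ko against d0ko Cyp26a1 and Syndig1 were called higher (11.6% of all genes). In d2-FVFp against d2-FVFn these were Cyp26a1 and Prokr2 (6.96%). In d3ko against d3con Rarb was the one called, lower (3.51%). Cyp26a1 and Rarb are members shown above for their rises, so these counts are not independent of the results on the members.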
